A study of Rattus norvegicus with 8 samples.

Results

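Linker and variant histone genes were read in the orbitofrontal cortex of rats after knockdown of a circular RNA. The set was given by 8 gene symbols, H1fx, H1f0, H2afz, H2afx, H2afy, H2afy2, H3f3a and H3f3b, among the protein-coding rows of the count table. It holds 7 rows of 34298, because 6 of the symbols were found and H3f3b stands on 2 gene models, while H1f0 and H3f3a were not analysed here under those names. The symbols were selected from a comparison of these same libraries, in which H1fx ranked 6th of 16573 genes by unadjusted p. The differences between the groups are therefore given as a description, without a test.

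The animals were 8 adult Sprague-Dawley rats, all male, which were 8 weeks old on arrival. In the 4 knockdown animals (replicates 1 to 4) the cortex had been infused with 5 ng of siRNA that targets the backsplice junction of circNrxn3, the circular RNA of the neurexin 3 gene. The 4 scrambled animals (replicates 1, 3, 4 and 5) had received a control siRNA of scrambled sequence. Both siRNAs were given in 1 µl with the transfection reagent JetPEI, and tissue was taken 7 days later. RNA of the whole dissected region was selected on poly-T beads, so each library mixes all its cell types, and the share of cells that took up siRNA is unknown here. In such bulk tissue, fewer cells of a type and less RNA per cell cannot be told apart.

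Histones are the proteins around which DNA is wound into nucleosomes. Most histone genes are transcribed during DNA replication and their mRNAs end in a stem-loop without a poly-A tail. Neurons no longer divide and depend on replacement variants, whose genes are transcribed through the whole cell cycle into polyadenylated mRNA. Linker histones of the H1 family bind where DNA enters and leaves the nucleosome and compact the fibre. Among the members, H1fx encodes the linker histone H1.10 (H1X), H2afz encodes H2A.Z, a variant at promoters and enhancers, and H2afx encodes H2A.X, which is phosphorylated around DNA breaks. H2afy and H2afy2 encode macroH2A1 and macroH2A2, which carry a large extra domain and mark repressed chromatin. H3f3b encodes H3.3, the replacement form of histone H3, which accumulates in neurons with age.

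Both models of H3f3b need a word on their identity. The model of 1655 bp lies on chromosome 10 (104573664 to 104575890, rn6, minus strand, ENSRNOG00000006532), and that of 411 bp on chromosome 13 (99091763 to 99101208, minus strand, ENSRNOG00000003220). RefSeq's annotation of the GRCr8 assembly places H3f3b on chromosome 10 and H3f3a, which encodes the same H3.3 protein, on chromosome 13. Of the 6 protein-coding rows nearest to the chromosome 10 model, 5 are also among the nearest genes of RefSeq's H3f3b, and of the 6 nearest to the chromosome 13 model, 5 are among those of RefSeq's H3f3a. The rows are called here by their chromosome, as the deposited table gives both the symbol H3f3b. RefSeq also lists 8 pseudogenes named after H3f3a and 2 named after H2az1, its name for H2afz, so reads of near-identical copies may be split or dropped for these models.

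The other models are H1fx on chromosome 4 (119889371 to 119889949, minus strand, ENSRNOG00000027722), H2afx on chromosome 8 (48665652 to 48666981, plus strand, ENSRNOG00000010386) and H2afz on chromosome 2 (243105674 to 243106956, plus strand, ENSRNOG00000010306). H2afy lies on chromosome 17 (9282675 to 9344678, plus strand, ENSRNOG00000011523) and H2afy2 on chromosome 20 (31352960 to 31402483, minus strand, ENSRNOG00000024751). H1fx and H2afx share a feature that the choice of symbols did not use: their models span exactly their own length (579 and 1330 bp), so they hold a single exon and no intron. The models of H1fx, H2afz (384 bp) and H3f3b on chromosome 13 have lengths that are multiples of 3, as coding sequences without UTRs do. The H2afz model lies within that of Dnajb14 on the same strand, and the Aifm2 model lies 54 bp from H2afy2 on the opposite strand. Dpagt1 lies 792 bp from H2afx on the same strand. Libraries were directional, but the sources used here do not say whether strand entered the counting, and without it reads of overlapping neighbours cannot be told apart.

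The promoters of 3 genes are shown because these genes hold the ends of the range of differences: H1fx and H2afx had the lowest log2 fold changes and H3f3b on chromosome 10 the highest. Each sequence runs from 250 bases before to 50 bases after the RefSeq start site in GRCr8. The windows are chr4:121998848-121999147 on the minus strand for H1fx (RefSeq H1f10), chr8:53568468-53568767 on the plus strand for H2afx (RefSeq H2ax) and chr10:101757587-101757886 on the minus strand for H3f3b. Capitals mark CCAAT and TATAAA on either strand, that is, also ATTGG and TTTATA.
H1fx: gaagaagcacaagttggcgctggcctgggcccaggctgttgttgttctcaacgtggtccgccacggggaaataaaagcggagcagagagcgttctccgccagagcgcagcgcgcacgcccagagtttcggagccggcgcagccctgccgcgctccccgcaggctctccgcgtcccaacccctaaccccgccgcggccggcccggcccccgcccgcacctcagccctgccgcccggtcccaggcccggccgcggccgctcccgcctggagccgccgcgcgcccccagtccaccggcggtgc
H2afx: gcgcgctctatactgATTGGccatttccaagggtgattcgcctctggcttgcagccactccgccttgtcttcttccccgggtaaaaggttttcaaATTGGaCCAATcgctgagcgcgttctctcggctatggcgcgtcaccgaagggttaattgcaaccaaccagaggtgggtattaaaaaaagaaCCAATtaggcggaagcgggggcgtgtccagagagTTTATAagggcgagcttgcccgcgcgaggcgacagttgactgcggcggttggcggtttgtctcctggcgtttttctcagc
H3f3b: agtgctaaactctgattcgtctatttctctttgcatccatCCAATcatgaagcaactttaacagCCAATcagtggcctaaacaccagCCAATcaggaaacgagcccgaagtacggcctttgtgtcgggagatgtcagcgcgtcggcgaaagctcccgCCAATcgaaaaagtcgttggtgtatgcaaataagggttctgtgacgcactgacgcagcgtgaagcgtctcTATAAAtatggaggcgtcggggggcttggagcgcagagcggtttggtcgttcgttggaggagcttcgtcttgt

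The 3 promoters differ in these motifs. That of H1fx holds 0 copies of CCAAT and 0 of TATAAA, whereas those of H2afx and H3f3b hold 4 copies of CCAAT and 1 of TATAAA each. In H2afx, 2 of the CCAAT copies read as written and 2 as ATTGG; in H3f3b all 4 read as written. Among 33469 RefSeq promoters of this length, 37.5% hold at least 1 CCAAT, 3.02% hold at least 3 and 14.2% hold TATAAA. The window of H1fx is 75% G and C, against a median of 51.7% over all promoters, with 55.3% for H2afx and 51.7% for H3f3b. Other symbols of the set are nearer to H1fx: 74.7% for H3f3a, 73.7% for H2afy, 73% for H1f0, 66.7% for H2afz and 65.3% for H2afy2. The promoter of H2afz (RefSeq H2az1) holds 3 copies of CCAAT and 1 of TATAAA, and those of H2afy and H2afy2 (RefSeq Macroh2a1 and Macroh2a2) hold 0 of each. That of H3f3a, which RefSeq places on chromosome 13, holds 1 copy of CCAAT and 0 of TATAAA, and that of H1f0 holds 0 of each. A match of letters is a description and not a binding site.

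The libraries held 27589883 to 35221782 counts each. Nrxn3, the host gene of the circle, had 82 to 430 counts in knockdown and 114 to 344 counts in scrambled libraries, which does not check the circle, since circular RNA has no poly-A tail. Neuronal markers (Rbfox3, Snap25, Syt1, Map2 and Tubb3) summed to 4851 to 5280 CPM in knockdown and 4616 to 5105 CPM in scrambled libraries, where CPM are counts scaled to a common library size with TMM factors. The 5 markers of cortical excitatory neurons summed to 2187 to 2776 CPM in knockdown and 2568 to 2977 CPM in scrambled libraries. Only 1 of these 5 had a log2 fold change below 0, and their median was 0.10. Markers of dividing cells (Mki67, Top2a, Ccnb1, Cdk1 and Bub1) summed to 4.10 to 4.93 CPM in knockdown and 2.24 to 6.41 CPM in scrambled libraries. The summed markers of astrocytes, oligodendrocytes, microglia, endothelial cells and striatal neurons overlapped between the groups, and of the endothelial list Cldn5 was at 0 in all libraries. Below 0 in log2 fold change were 4 of 5 astrocyte, 0 of 5 oligodendrocyte (median 0.17) and 2 of 5 microglial markers. Of those tested, 0 of 3 endothelial and 3 of 5 striatal markers were below 0. The 5 red blood cell genes, all with a negative log2 fold change, summed to 359 to 759 CPM in knockdown and 607 to 2438 CPM in scrambled libraries.

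H1fx was the member with the largest difference between the groups. It had 85.3, 77.4, 90.9 and 88.7 CPM in knockdown replicates 1 to 4, against 109.9, 107.5, 115.0 and 102.9 CPM in scrambled replicates 1, 3, 4 and 5. All 4 knockdown values lay below all 4 scrambled values, with the lowest in knockdown replicate 2 and the highest in scrambled replicate 4. The means were 85.6 ± 5.94 CPM in knockdown and 108.8 ± 5.03 CPM in scrambled libraries (SD, n = 4 each), which gives a log2 fold change of −0.35 ± 0.07 (SE) or a difference of −21.4%. H1fx was the only member whose groups did not overlap, and a separation with knockdown lower was seen in 1.65% of all genes tested, and one with knockdown higher in 1.82%. As H1fx was chosen from this contrast, nothing is read from that share.

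**Figure D1:**
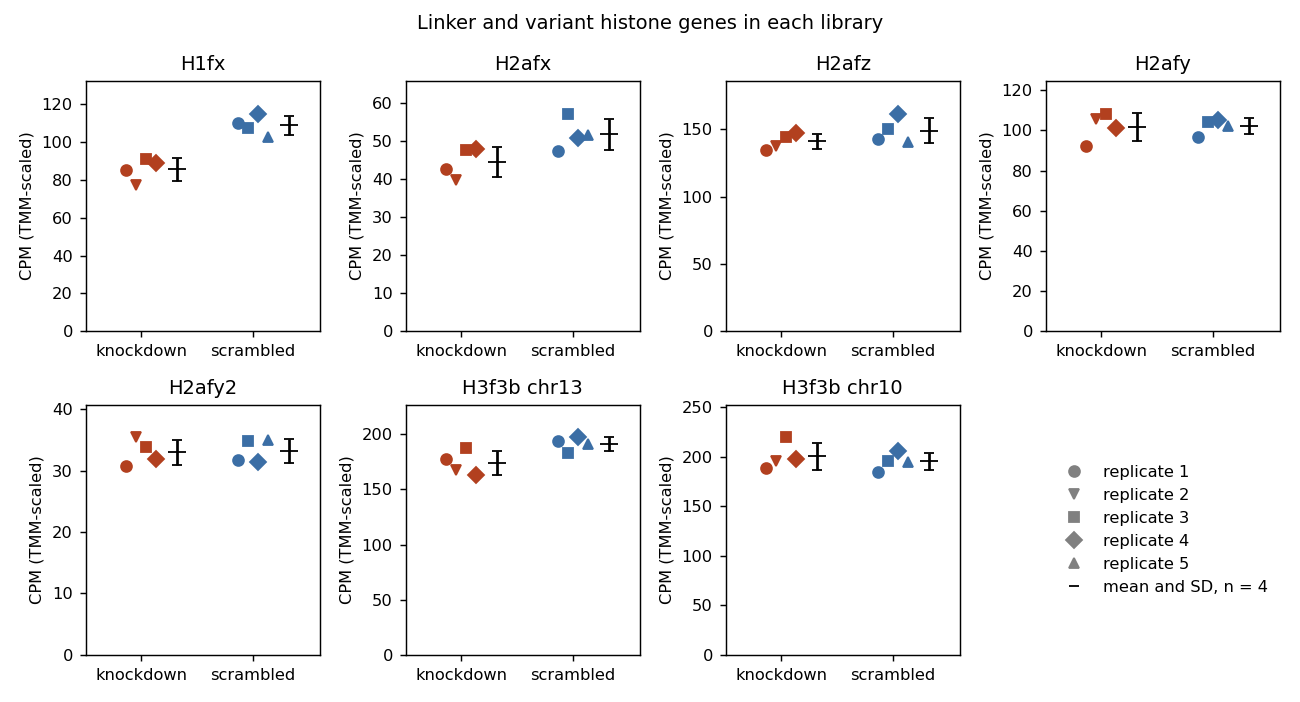
Level of each member in CPM (vertical axes, from 0) in the 4 knockdown and 4 scrambled libraries, with a point for each library, its shape giving the replicate number, and the mean and SD of each group in black. The knockdown points of H1fx lie at 77.4 to 90.9 CPM and its scrambled points at 102.9 to 115.0 CPM, while the points of the groups overlap in the other 6 models.

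A second row of the table lies beside H1fx. AC111943.1, annotated as a miRNA of 128 bp (chromosome 4, 119890206 to 119890333, minus strand), begins 257 bp from the H1fx model, on its upstream side and on the same strand. It had 299, 159, 143 and 192 counts in knockdown replicates 1 to 4, against 150, 269, 294 and 189 counts in scrambled replicates 1, 3, 4 and 5. The groups overlapped widely, with the highest count in a knockdown library and the next in scrambled replicate 4. Its log2 fold change was −0.22 ± 0.22 (SE), at 6.12 ± 1.37 CPM in knockdown and 7.14 ± 1.54 CPM in scrambled libraries (SD, n = 4 each). This row was chosen after its values were seen.

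H2afx, the other intronless member, had 42.6, 39.8, 47.6 and 48.1 CPM in knockdown replicates 1 to 4, against 47.3, 57.3, 50.9 and 51.7 CPM in scrambled replicates 1, 3, 4 and 5. The groups overlapped: knockdown replicates 3 and 4 stood just above scrambled replicate 1, the lowest of its group. The log2 fold change was −0.22 ± 0.09 (SE), from 44.5 ± 4.01 CPM in knockdown and 51.8 ± 4.10 CPM in scrambled libraries (SD, n = 4 each). As in H1fx, knockdown replicate 2 was the lowest library.

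H2afz differed less than these. It was at 134.9 to 147.5 CPM in knockdown and 140.6 to 161.7 CPM in scrambled libraries, a log2 fold change of −0.08 ± 0.07 (SE). Scrambled replicate 4 was the highest library, and 2 of the 4 knockdown libraries lay below all scrambled ones.

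The macroH2A genes had nearly the same level in both groups. H2afy was at 101.9 ± 6.95 CPM in knockdown and 102.0 ± 3.89 CPM in scrambled libraries (SD, n = 4 each), which gives a log2 fold change of −0.0024 ± 0.07 (SE). H2afy2 was at 33.0 ± 2.07 CPM in knockdown and 33.2 ± 1.96 CPM in scrambled libraries (SD, n = 4 each), which gives a log2 fold change of −0.0086 ± 0.08 (SE). These paralogues also kept a similar proportion, the ratio of their FPKM (counts scaled by library size and by model length, as the authors deposited them) being 3.11 ± 0.11 in knockdown and 3.10 ± 0.19 in scrambled libraries (SD, n = 4 each).

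The H3.3 models stood on either side of no difference. The chromosome 13 model had 177.6, 167.6, 187.4 and 163.2 CPM in knockdown replicates 1 to 4, against 194.4, 182.7, 197.2 and 191.1 CPM in scrambled replicates 1, 3, 4 and 5. In 3 of the 4 knockdown libraries it lay below all scrambled ones, and knockdown replicate 3 lay within the scrambled range. The log2 fold change was −0.14 ± 0.07 (SE). The chromosome 10 model had 188.4, 195.2, 219.5 and 197.8 CPM in knockdown replicates 1 to 4, against 184.9, 196.0, 206.1 and 194.2 CPM in scrambled replicates 1, 3, 4 and 5. Its groups overlapped, the highest value was in knockdown replicate 3, and the log2 fold change was 0.04 ± 0.07 (SE). The ratio of the chromosome 13 to the chromosome 10 model in FPKM was 3.50 ± 0.20 in knockdown and 3.95 ± 0.21 in scrambled libraries (SD, n = 4 each), with ranges of 3.32 to 3.80 in knockdown and 3.75 to 4.23 in scrambled libraries that overlapped. Its size depends on the model lengths of 411 and 1655 bp, which are the same for both groups. In CPM the chromosome 13 model averaged below the chromosome 10 model in both groups.

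Of the 7 members, 6 had a log2 fold change below 0, where 48.7% of the 16573 genes tested had one. The median was −0.08 over the members and 0.0066 over all genes tested. After Benjamini-Hochberg adjustment, edgeR's quasi-likelihood test called 0 of the 7 at 0.05, and 0% of all genes. Without adjustment, 2 members (H1fx and H2afx) had a p under 0.05, both lower in knockdown, as had 5.59% of all genes in either direction and 3.2% with knockdown lower. DESeq2 called 0 of the 7 members and 0.073% of the genes it tested, with an adjusted p of 0.0507 for H1fx. Run on the genes kept for edgeR, a choice made after seeing the data, DESeq2 gave an adjusted p to only 4042 genes, and H2afy2 got none. The first DESeq2 run had adjusted over 15067 genes. In the later run DESeq2 called H1fx (adjusted p = 0.00594) and 0.445% of the 4042 genes. The adjusted p of H1fx from these runs are thus corrected over unlike sets of genes. Over all alternatives the adjusted p of H1fx ran from 0.00594 to 0.9999. The members' contrast is the one they were proposed from, so these counts are descriptions.

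**Figure D2:**
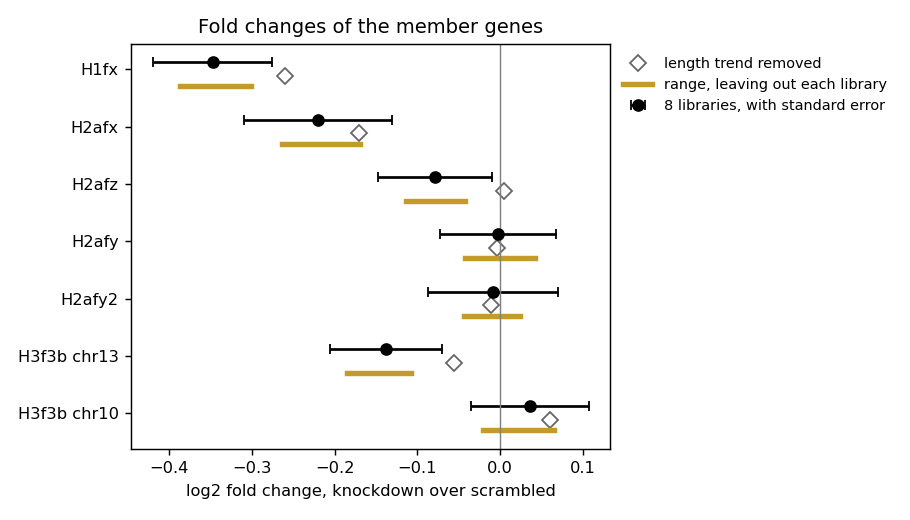
The log2 fold change of each member, knockdown over scrambled (horizontal axis), with its standard error in black, the value with each library's length trend removed as an open diamond, and the range over fits that leave out each library in turn as a bar. H1fx runs from −0.35 with 8 libraries to −0.26 with the length trend removed, H2afz lies at 0.0040 with that trend removed, and the macroH2A genes lie at −0.0024 and −0.0086 with 8 libraries.

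The differences varied with the length of the gene model. The mean log2 deviation of gene models over 3486 bp minus that of models under 1372 bp was 0.05 ± 0.09 in knockdown and −0.05 ± 0.09 in scrambled libraries (SD, n = 4 each, 2-sided exact permutation p = 0.2). Protein-coding genes were also ranked by model length among themselves, without these bounds. The 3612 shortest models had a median log2 fold change of −0.08 and the 3610 longest 0.06. Knockdown replicate 2, the lowest library for H1fx and H2afx, had the highest value of this measure (0.15). Scrambled replicate 4, the highest library for H1fx, had the lowest (−0.15). Other libraries differed from this order. Scrambled replicate 1 was at 0.06 on the measure, with H1fx 0.19 above its own mean in log2 CPM. Knockdown replicate 3 was at −0.05, with H1fx at −0.08. With a trend on length removed from each library, the log2 fold change was −0.26 for H1fx, −0.17 for H2afx, −0.06 for the chromosome 13 model of H3f3b and 0.0040 for H2afz. The 659 other protein-coding models without introns were at −0.02 in the median log2 fold change. Of them, 25.5% were at −0.2 or lower, against 23.6% of the 3612 shortest models and 16.1% of all genes tested. Below 0 were 53.1% of the models without introns, 65.6% of the shortest models and 48.7% of all genes tested. The comparison of models without introns was made after the values of H1fx and H2afx were seen. The part of model length and of intron content in the members' differences was not tested.

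Within the groups the members varied little. The within-group SD of log2 CPM ran from 0.07 for the chromosome 13 model of H3f3b to 0.12 for H2afx, against a median of 0.15 over the 9018 genes with at least 10 CPM on average. That set was not matched to the members in level, whose knockdown means ran from 33.0 CPM (H2afy2) to 200.2 CPM (chromosome 10 model of H3f3b). The within-group spread also enters the p by which H1fx was ranked. Summed over the members, the level was 752 to 832 CPM in knockdown and 808 to 867 CPM in scrambled libraries, which overlap.

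**Figure D3:**
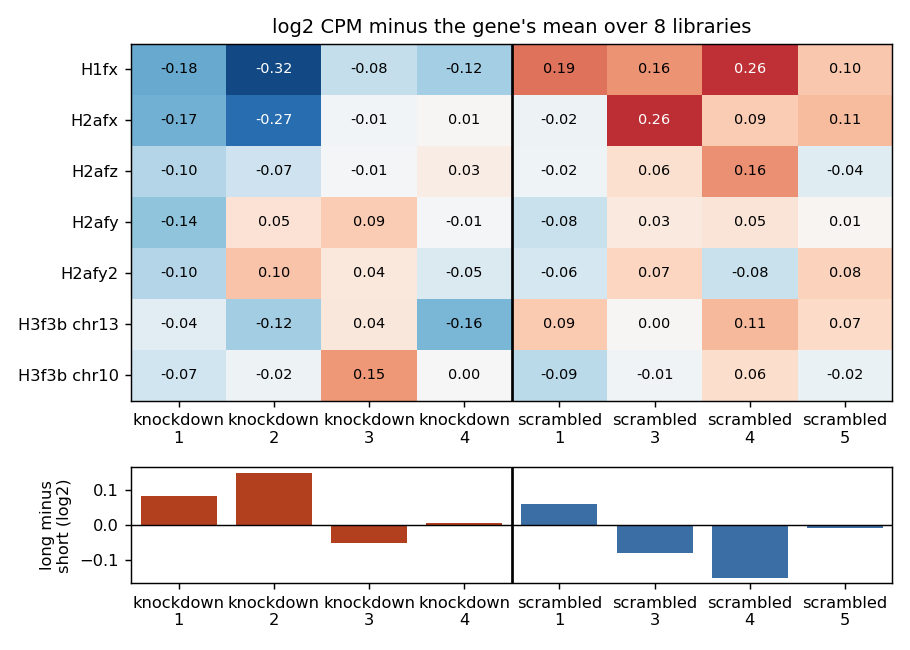
Upper panel, the log2 CPM of each member (rows) in each library (columns) minus its mean over the 8 libraries, printed in each cell and coloured from blue (low) to red (high). Lower panel, the log2 difference between long and short gene models in the same libraries. H1fx is at −0.32 in knockdown replicate 2, where the length measure is 0.15, and at 0.26 in scrambled replicate 4, where it is −0.15. It is at 0.19 in scrambled replicate 1, where the measure is 0.06, and at −0.08 in knockdown replicate 3, where it is −0.05.

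The genes whose profile over the 8 libraries was most like that of H1fx were ranked by the root-mean-square difference of log2 deviations from each gene's own mean, among 8597 protein-coding genes with at least 10 CPM. The first 5 were LOC689574 (0.05), S100a16, a calcium-binding protein (0.05), Rpl29, a ribosomal protein (0.06), Igfbp7, which is secreted and binds insulin-like growth factors (0.06), and Pkig, an inhibitor of protein kinase A (0.07), where the median gene stood at 0.23. Rpl29 was at 300.3 to 390.4 CPM in knockdown and 427.9 to 463.5 CPM in scrambled libraries. Igfbp7 was at 150.3 to 165.1 CPM in knockdown and 185.2 to 201.1 CPM in scrambled libraries. These genes were ranked on a profile that holds the contrast H1fx was chosen from, so nothing is read from what they share. Of the other members, H2afx (0.11) and the chromosome 13 model of H3f3b (0.13) were nearest to H1fx and H2afy2 (0.22) was farthest.

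Levels per length of the members spanned a wide range and kept the same order in all 8 libraries. In FPKM over the 8 libraries, the chromosome 13 model of H3f3b was at 394 to 479 (median 448), H2afz at 345 to 421 (median 369.8) and H1fx at 132 to 198 (median 166). The chromosome 10 model of H3f3b was at 110.3 to 131 FPKM (median 118), H2afy at 47.5 to 56.0 (median 53.8), H2afx at 29.5 to 43.1 (median 35.6) and H2afy2 at 15.7 to 18.1 (median 16.9). H1fx thus stood above 96.3% of the 14437 protein-coding genes tested in mean FPKM, and H2afy2 above 70.2%. The member order was not what the genes were chosen for, and each of the 6 pairs of neighbours was compared within libraries by a 2-sided exact sign-flip permutation test of log2 FPKM. In every pair the first gene was the higher in 8 of 8 libraries, and each test gave the smallest p it allows (0.00781, and 0.00781 after Benjamini-Hochberg adjustment over the 6 pairs). The pairs and their direction came from these same values, and the model lengths are the same in every library. These p therefore describe how steady the order was across libraries and do not show which transcripts were more abundant. The nearest neighbours were the chromosome 13 model of H3f3b and H2afz, 1.18-fold apart, whose ranges over libraries overlapped. The next nearest were H1fx and the chromosome 10 model of H3f3b, 1.39-fold apart, and the remaining neighbours were 1.48-fold to 2.27-fold apart. FPKM divide by the length of the model, so the models that look like coding sequence alone (H1fx, H2afz and the chromosome 13 model of H3f3b), which stand in the first 3 places, are not on the same footing as those with UTRs. The order depends on this division: in CPM, which are not divided by length, the chromosome 10 model of H3f3b averaged 200.2 in knockdown and 195 in scrambled libraries, above the chromosome 13 model with 174 in knockdown and 191 in scrambled libraries.

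**Figure D4:**
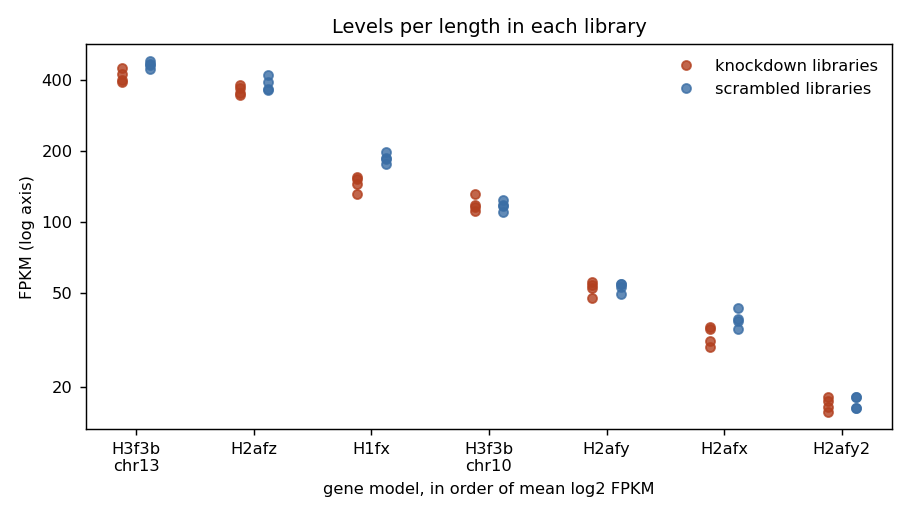
FPKM of each member (vertical log axis) in the 4 knockdown and 4 scrambled libraries, with a point for each library and the gene models in order of mean log2 FPKM. The chromosome 13 model of H3f3b leads at 394 to 479 FPKM and H2afy2 is last at 15.7 to 18.1 FPKM; only the first 2 models have ranges that overlap their neighbour's.

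Other histone genes gave few reads in these poly-A selected libraries. Of 43 rows of replication-dependent histone genes (symbols beginning with Hist1h to Hist4h), 37 had 100 counts or fewer over the 8 libraries together, and 6 passed the filter on low counts. Over all 43 rows the summed level was 80.1 to 104 CPM, and 82.1% of these counts came from 2 rows, Hist3h2ba and Hist1h1c. Hist3h2ba, an H2B gene, was at 51.4 ± 4.20 CPM in knockdown and 59.9 ± 4.23 CPM in scrambled libraries (SD, n = 4 each), which gives a log2 fold change of −0.22 ± 0.08 (SE). Hist1h1c, the gene of linker histone H1.2, was at 20.1 ± 2.62 CPM in knockdown and 21.6 ± 2.62 CPM in scrambled libraries (SD, n = 4 each), which gives a log2 fold change of −0.10. Hist1h4b, an H4 gene whose symbol stands on several rows, had −0.27 on its chromosome 17 row with the most reads. In FPKM, H1fx stood 4.75 ± 0.61-fold above Hist1h1c in knockdown and 5.63 ± 0.77-fold in scrambled libraries (SD, n = 4 each), with ranges that overlapped. This ratio covers poly-A selected reads only, and mRNA of replication-dependent genes without a poly-A tail is not counted in it.

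H2afv, which encodes the second form of H2A.Z, was the one gene tested of 8 rows of other variant histones, with 31.0 ± 4.62 CPM in knockdown and 33.0 ± 1.74 CPM in scrambled libraries (SD, n = 4 each). Its log2 fold change of −0.09 was like that of H2afz in sign. No ratio of the levels is given, as the H2afv model has 1896 bp and that of H2afz 384 bp, and the ratio depends on these lengths.

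The machinery that places and removes these variants was read through 5 further lists, none of whose genes passed the edgeR test. For H3.3 deposition (the HIRA and ATRX-DAXX pathways), 0 of 8 genes passed in either direction, 3 of 8 were below 0 and the log2 fold changes had a median of 0.05. Atrx, the remodeller that acts with DAXX, had 0.19 with a standard error of 0.11, Cabin1, a subunit of the HIRA complex, −0.25 (0.15) and Dek, a chromatin protein that binds H3.3, 0.11 (0.09). For H2A.Z exchange (the SRCAP, TIP60-p400 and INO80 complexes), 0 of 25 passed, 11 of 25 were below 0 and the median was 0.04. Ino80e had −0.22 with a standard error of 0.12 and Ruvbl1, an ATPase of these complexes, −0.16 (0.09).

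Ino80b, a subunit of the INO80 remodeller, had the log2 fold change farthest from 0 of the genes in these lists. It was at 15.2, 1.73, 10.1 and 1.26 CPM in knockdown replicates 1 to 4, against 1.65, 1.73, 1.07 and 1.70 CPM in scrambled replicates 1, 3, 4 and 5. Knockdown replicates 1 and 3 stood far above the rest, and the other 2 knockdown libraries lay at the scrambled level. Its log2 fold change was 2.20 ± 0.76 (SE).

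The other histone chaperones were at a median log2 fold change of 0.10, and 0 of 17 passed while 5 of 17 were below 0. Nap1l5, of the nucleosome assembly protein family, was at 270.9 ± 10.8 CPM in knockdown and 244 ± 10.5 CPM in scrambled libraries (SD, n = 4 each), which gives a log2 fold change of 0.15. Nucleolin (Ncl) had 0.14 and Nap1l3 0.17. Genes of H2A.X damage signalling had a median of 0.07, with 0 of 17 passing and 4 of 17 below 0. Rnf168, the ubiquitin ligase that acts on H2A-type histones at breaks, had 0.20 with a standard error of 0.10, and Eya1 (0.72) and Brca1 (0.50) were low, at under 2 CPM in every library.

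Proteins of the high-mobility group share nucleosome sites with linker histones and loosen chromatin. Of 10 rows, 8 were tested, 0 passed and 6 were below 0; the median of their log2 fold changes was −0.18. This median was −0.07 without knockdown replicate 1, −0.11 without knockdown replicate 3 and −0.29 without knockdown replicate 2, and −0.06 with no filter on low counts. Hmga1, whose model of 324 bp is as short as a coding sequence, had 68.2, 77.7, 90.5 and 94.1 CPM in knockdown replicates 1 to 4, against 87.0, 108.5, 105.0 and 108.1 CPM in scrambled replicates 1, 3, 4 and 5. The groups overlapped through scrambled replicate 1, and the log2 fold change was −0.31 ± 0.11 (SE). Hmgn1 had −0.76 with a standard error of 0.55 and Hmgb2 −0.29 with a standard error of 0.24, both at low levels. Hmgn3 had −0.07, at means of 85.0 CPM in knockdown and 89.2 CPM in scrambled libraries. Hmgn2 had −0.04, at means of 74.8 CPM in knockdown and 76.8 CPM in scrambled libraries. Hmgb3 had −0.30 with a standard error of 0.69 on chromosome 17 and 0.06 on chromosome 14, and Hmgb1 had 0.10. Hmgn3, Hmgn2, Hmgb3 and Hmgb1 were chosen after their values were seen. Otherwise the 3 genes named from each list are those with the smallest unadjusted p. Every gene of these lists had an edgeR adjusted p of at least 0.833. The list medians moved with the setting. Over 21 alternatives they ran from −0.06 to 0.08 for H3.3 deposition, from −0.0065 to 0.07 for H2A.Z exchange and from −0.01 to 0.13 for H2A.X damage signalling, so these 3 changed sign. They ran from −0.23 to −0.03 for replication-dependent histones, from −0.21 to −0.03 for H2afv, from 0.05 to 0.13 for other chaperones and from −0.29 to −0.06 for high-mobility group proteins.

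**Figure D5:**
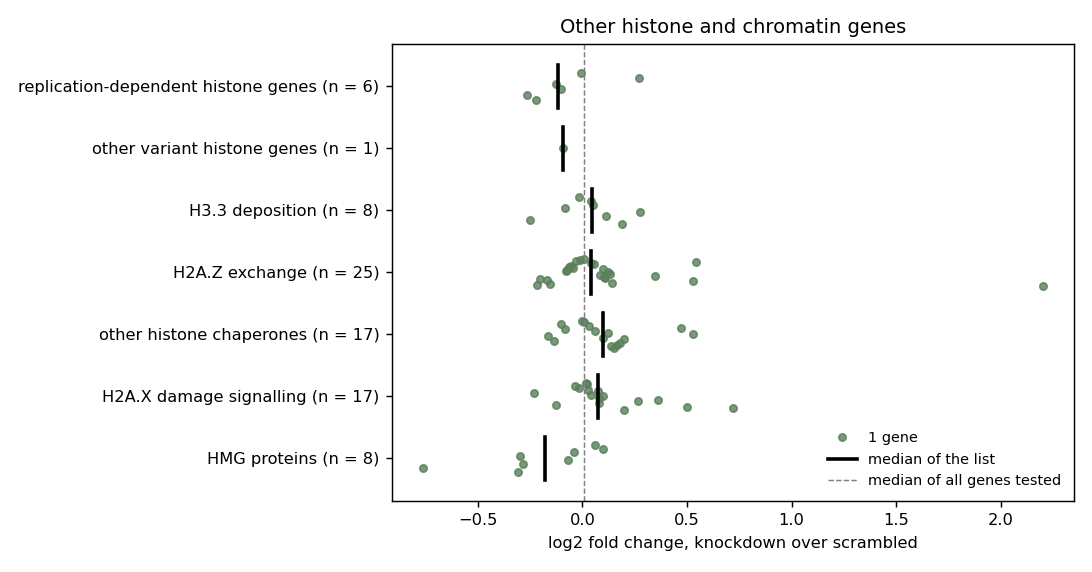
The log2 fold change, knockdown over scrambled (horizontal axis), of each tested gene in 7 lists of histone and chromatin genes, with the median of each list as a black bar and the median of all genes tested as a dashed line. The list medians lie between −0.18 for the high-mobility group proteins and 0.10 for other histone chaperones, and the point at 2.20 is Ino80b.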

How the data were processed

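Whole-number read counts and FPKM per gene were deposited by the authors, with a column for each of 8 samples. Per the submitters' processing notes, the tools were featureCounts 1.5.0-p3, StringTie 1.3.3b, HISAT2 2.0.5 and fastp, on the build rn6, with roles not given. The deposited FPKM are scaled between samples: the library totals they imply are proportional to median-of-ratios size factors. Samples were grouped by title, and pairs within a group differed beyond sampling noise (chi-square over its degrees of freedom 23.2 to 47.4). The labels call the samples biological replicates.

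Counts were fitted over all genes with edgeR 4.0.16 in R 4.3.3: filterByExpr (minimum count 10, 16573 genes), TMM, robust quasi-likelihood F test, Benjamini-Hochberg adjustment, threshold 0.05, 2-sided. The standard error is the log2 fold change over the square root of F. CPM use the TMM factors; log2 CPM use a prior count of 2. The procedure was tested on simulated data. Alternatives used DESeq2 1.42.0, limma 3.58.1 (voom, and log2(FPKM + 1) and log2(FPKM + 0.1)), other scalings and filters, a lowess length trend as offsets, and left-out libraries.

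The members and lists were chosen with earlier results of these data known. Of 92 list symbols written by name, 84 were found, older names being matched through RefSeq. All members are named, the 3 genes with the smallest p in each list, and the 5 most like H1fx; others are said to have been chosen afterwards. Promoters come from RefSeq (GRCr8): all 8 symbols matched.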

Additional observations from a re-analysis of the deposited data

How the results depend on the processing

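The log2 fold changes of H1fx (−0.39 to −0.26), H2afx (−0.26 to −0.10) and the chromosome 13 model of H3f3b (−0.19 to −0.06) stayed below 0 in all 21 alternatives run. These alternatives refit all or part of the libraries that the symbols were selected from, so a steady sign is only a description. H2afy and H2afy2 each changed sign in 5 alternatives, and H2afz and the chromosome 10 model of H3f3b in 1 each. Members' values moved by more than the within-group SD only with the length trend removed, to −0.26 for H1fx, −0.056 for the chromosome 13 model of H3f3b and 0.0040 for H2afz. The edgeR test called 0 genes and limma-voom 0, against 11 with DESeq2 and 18 with DESeq2 on the genes of the edgeR filter (added after seeing the data). These DESeq2 runs adjusted over 15067 and 4042 genes, and the cause of the unlike counts was not tested. A fit of knockdown replicates 1, 2 and 4 against scrambled replicate 1 alone, the libraries above 0 on the length measure, was also added after seeing the data and called 13; it assumes that the lone library varies like the others, and its count cannot be set beside those of 8 libraries. Leaving out each library in turn gave 0 to 1 called genes, 1 without knockdown replicate 2 and 1 without knockdown replicate 3. The order of levels per length was the same in the 10 alternatives tested, but all divide by the same model lengths, which were not varied, and each p is the smallest possible. Within 1 group of 4 libraries the smallest possible p is 0.125.

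Replicate numbers 1, 3 and 4 occur in both groups. Deviations of same-numbered libraries correlated over genes at 0.37, 0.30 and 0.09. Libraries with different numbers ran from −0.44 (knockdown replicate 3 with scrambled replicate 1) to 0.28 (knockdown replicate 2 with scrambled replicate 1). For each of knockdown replicates 1, 3 and 4, the scrambled library of the same number had the highest correlation. The main fit took the animals as unpaired, and whether the numbers pair them was not tested. With the number as a block in those 6 libraries, 0 genes were called and the log2 fold change of H1fx was −0.33, as without the block. The edgeR adjusted p of H1fx in these 6 libraries was 0.139 with the block and 0.9997 without it. The members had 885 to 6969 counts a library, and the effect of depth on the calls was not tested. Most replication-dependent histone rows held too few counts to compare.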
